A study of Rattus norvegicus with 18 samples.

Results

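The Janus kinases (JAKs), the STAT factors they phosphorylate and the SOCS proteins that switch them off were followed at the RNA level in rat synovial macrophages after joint surgery. The members are 10 genes, taken by symbol from the deposited table of each time point: the kinases Jak1, Jak2, Jak3 and Tyk2, the feedback inhibitors Socs1, Socs3 and Cish, and the factors Stat3, Stat5a and Stat5b. All 10 were found among the 30643 genes of both tables, and all 10 passed the filter on low values at both weeks. The members were picked by name and not by a cutoff on a measured value, but with earlier results of these data known.

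Cytokine receptors of this family have no kinase activity of their own and carry a pair of JAKs on their inner chains. When a cytokine joins the chains, the JAKs phosphorylate each other and the receptor, a STAT docks and is phosphorylated, and STAT dimers enter the nucleus and switch on genes. Among these genes are the SOCS family, whose proteins block the kinase or the docking site, so that their RNA is often read as a mark of recent signalling. In macrophages JAK1 with TYK2 and STAT3 serves interleukin-10 and interleukin-6 type receptors, JAK2 with STAT5 serves GM-CSF, and JAK3 is held by the common gamma chain. Phosphorylation is what activates these proteins, and the libraries hold RNA levels only.

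Total RNA was sequenced from CD11b/c+ cells of the knee synovium of male wild type Sprague Dawley rats, operated on at 12 weeks of age. Osteoarthritis (OA) was induced by cutting the anterior cruciate ligament and destabilising the medial meniscus, and controls had sham surgery. Cells were taken 4 weeks after surgery (5 OA and 5 sham libraries, each a pool of 4 rats) or 12 weeks after surgery (4 OA and 4 sham libraries, each a pool of 3 rats). The cells were sorted with magnetic beads, and all animals were males operated on at 1 age, so they were older at 12 weeks than at 4 weeks after surgery.

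Recovered reads ranged from 4662344 to 18080503 per library, and the lowest total was that of sham replicate 3 of 4 weeks, which also stood apart for several members. Of 15 macrophage markers 14 were found and all 14 were above the minimum level, with Csf1r at 20780 to 36140 normalized reads across the libraries. Fibroblast genes (summed level 49628 to 114590) and endothelial genes (28599 to 49290) were abundant as well, so the sort was not pure. The T cell receptor genes Cd3d, Cd3e and Cd3g were near 0, with a summed level of 3.25 to 67.3. In such bulk samples fewer cells of a type and less RNA per cell cannot be told apart.

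The promoters of the SOCS genes are shown because they hold, or lack, the letters that STAT dimers are known to favour, TTCNNNGAA, which reads the same on both strands. In the RefSeq promoter table (GRCr8, 250 bases before to 50 after each start) 8.87% of 33469 promoters held a match. Of the 10 members 7 had an entry and 2 held a match. The promoter of Cish held 4, at 241, 230, 136 and 119 bases before the start, and 2 of the 33469 promoters held 4 or more. The promoter of Socs1 held 1, at 196 bases before the start, and the windows of Socs3, Jak2, Stat3, Stat5a and Stat5b held none. The start used for Socs3 lies inside the span that RefSeq gives the gene, so its window may not be the outermost promoter. Below are the 250 bases before the start of both genes with a match, with the matched letters in capitals, for Cish at chr8:116850719-116850968 (plus strand) and for Socs1 at chr10:5389324-5389573 (plus strand). A match describes the letters and does not show that a factor was bound.
Cish: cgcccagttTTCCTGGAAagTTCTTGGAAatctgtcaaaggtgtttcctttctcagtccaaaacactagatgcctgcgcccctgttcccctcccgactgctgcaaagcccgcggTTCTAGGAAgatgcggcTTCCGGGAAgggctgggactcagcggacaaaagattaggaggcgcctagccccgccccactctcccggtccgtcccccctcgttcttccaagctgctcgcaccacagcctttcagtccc
Socs1: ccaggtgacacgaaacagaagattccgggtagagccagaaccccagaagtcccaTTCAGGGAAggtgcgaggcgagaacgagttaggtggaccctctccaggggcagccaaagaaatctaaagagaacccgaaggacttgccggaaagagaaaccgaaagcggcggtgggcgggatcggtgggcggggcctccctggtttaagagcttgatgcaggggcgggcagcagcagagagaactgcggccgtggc

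Across the members, OA and sham levels were close at both weeks, and Jak3 at 12 weeks was the member whose groups stood apart. A gene was called when its log2 fold change reached 0.5 in either direction with a Benjamini-Hochberg adjusted p-value under 0.05 in limma. None of the 10 members was called at 4 weeks, at 12 weeks or for the difference between the weeks, against a background of 0% of all genes tested (0 of 14861, 0 of 14666 and 0 of 14420). At an unadjusted p-value under 0.05 there was no member at 4 weeks, where the background was 7.92% (1177 genes), and 1 member at 12 weeks, Jak3, where it was 12.4% (1814 genes). That is 1 of 10, a share near the background. In edgeR no member was called in any of the 3 comparisons either, the smallest adjusted p-value being 0.265, for Jak3 at 12 weeks. The share of all genes that edgeR called is not given here. The median log2 fold change of the members was -0.05 at 4 weeks, beside 0.03 over all genes tested, and -0.11 at 12 weeks, beside -0.01. At 12 weeks 9 of the 10 members had a lower mean log2 level in OA, compared with 52.5% of all genes, and at 4 weeks 6 of 10 did, compared with 42.9%.

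**Figure D1:**
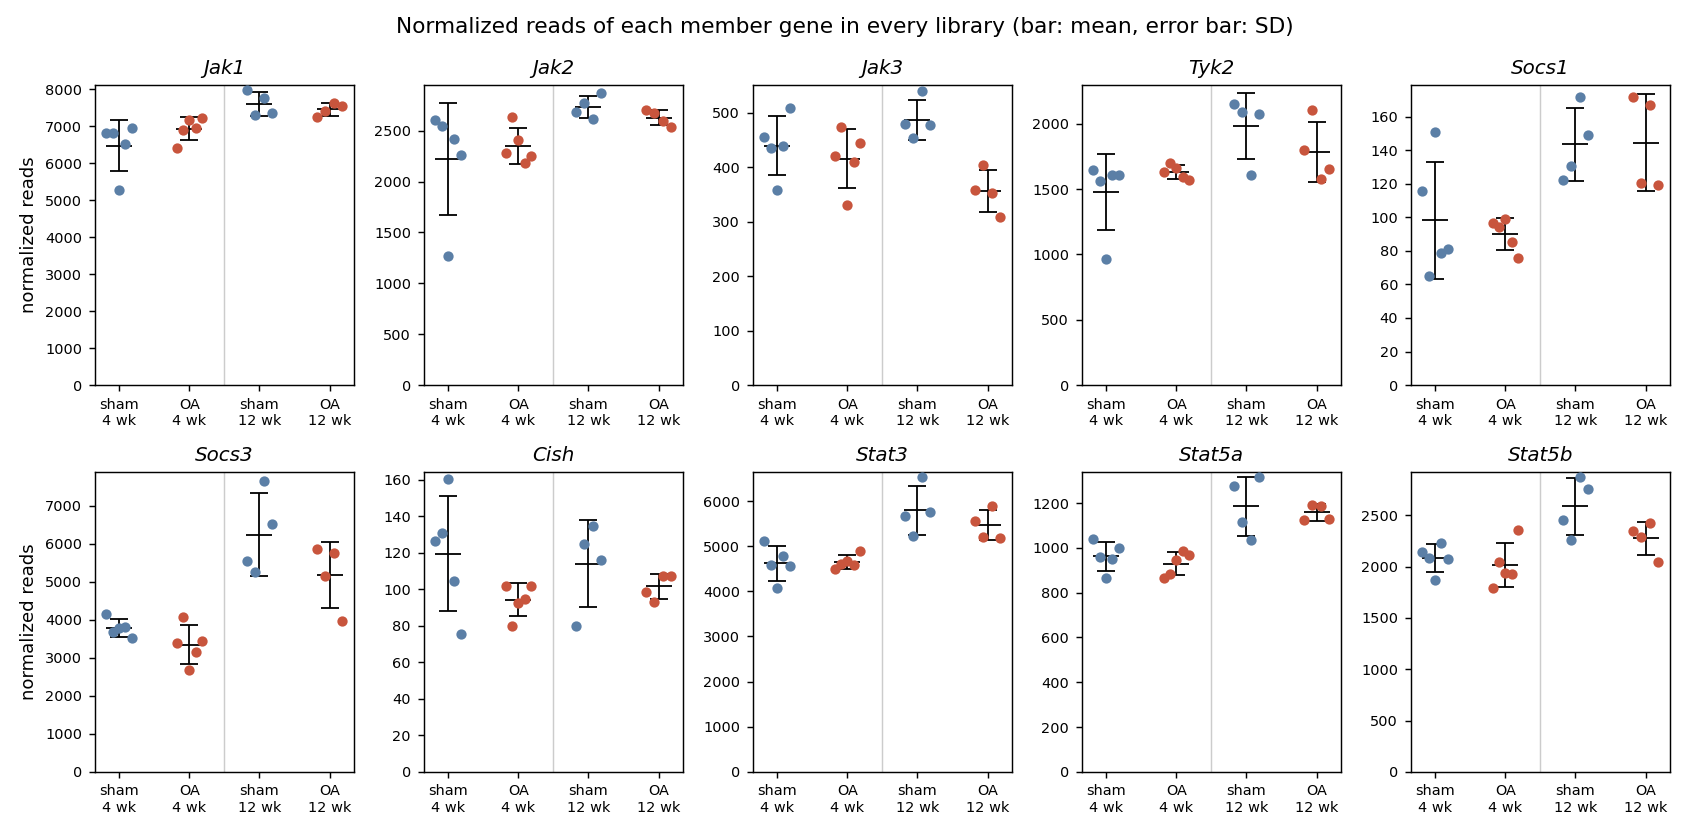
Normalized reads (y axis, linear from 0) of each of the 10 genes in all 18 libraries, 1 panel per gene, with sham in blue and OA in red at each week, and the mean and SD in black. The 4 OA values of Jak3 at 12 weeks lie below the 4 sham values, and 1 sham library of 4 weeks lies far below the others in Jak1, Jak2 and Tyk2.

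Jak3 was lower in OA at 12 weeks in every library. JAK3 is the kinase of the receptors for interleukin-2, interleukin-4 and others that share the common gamma chain, and it is best known from lymphocytes. At 12 weeks the OA libraries held 358, 403, 353 and 309 normalized reads (356 ± 38.7, SD, n = 4) and the sham libraries 479, 453, 539 and 478 (487 ± 36.7, SD, n = 4). The highest OA library was below the lowest sham library. OA reached 73.0% of the sham mean, a log2 fold change of -0.46 (SE 0.09, 95% interval -0.66 to -0.25). The unadjusted p-value in limma was 0.000614 and the adjusted p-value 0.264, so Jak3 was not called. It ranked 33rd of 14666 genes by p-value. An exact permutation test (two-sided) gave p = 0.0286, the smallest that 4 against 4 libraries allow. Non-overlapping groups with OA below sham were seen in 3.44% of all genes at 12 weeks and non-overlapping groups in either direction in 6.29%, and Jak3 was the 1 member among them. DESeq2 on the recovered reads gave Jak3 a log2 fold change of -0.44 with an adjusted p-value of 0.0109, under the fold-change minimum. With that minimum dropped, 1.03% of genes passed in DESeq2 at 12 weeks, Jak3 being the 1 member, and 0.454% at 4 weeks, with no member. The adjusted p-value of Jak3 in the limma and edgeR alternatives ranged from 0.111 to 0.626.

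At 4 weeks no such gap was seen for Jak3. The OA libraries held 420, 475, 330, 410 and 444 normalized reads and the sham libraries 456, 435, 357, 440 and 508. The groups overlapped over most of their range, and the log2 fold change was -0.08 (SE 0.11, 95% interval -0.33 to 0.17). At 4 weeks 0.693% of all genes had non-overlapping groups with OA lower and 1.87% in either direction, and none of the members was among them. The fold change of Jak3 at 12 weeks minus that at 4 weeks was -0.34 on the log2 CPM scale (SE 0.15, 95% interval -0.65 to -0.03). In limma this difference had an unadjusted p-value of 0.0320 and an adjusted p-value of 0.962, against a background of 3.00% of genes (432) at an unadjusted p-value under 0.05, and it was the 1 member of 10 there. Leaving out single libraries moved its unadjusted p-value between 0.00426 and 0.0785, and it was above 0.05 without OA replicate 2, OA replicate 5 or sham replicate 3 of 4 weeks and without OA replicate 4 or sham replicate 3 of 12 weeks.

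Markers of other cells differed beside Jak3. At 12 weeks skeletal muscle genes (7 of 10 found) summed to 1095 to 1820 normalized reads in OA and 771 to 946 in sham, without overlap, and fibroblast genes (10 of 11 found) to 87548 to 113760 in OA and 61386 to 92771 in sham. Much of the fibroblast sum was Col3a1, with means of 60760 in OA and 44280 in sham. Thy1 (means of 606 in OA and 866 in sham) and Pdgfrb (2664 and 3194) were lower in OA, and the remaining fibroblast genes had higher means in OA. Mast cell and eosinophil genes (10 of 10 found) summed to 2343 to 3958 in OA and 3031 to 5589 in sham. T and NK cell genes without Cd4, which rat macrophages carry, summed to 509 to 605 in OA and 511 to 652 in sham. The defining T cell genes Cd3d, Cd3e and Cd3g together gave 7.51 to 17.2 in OA and 6.04 to 12.6 in sham. In the same list Ncr1 was lower in OA, at 5.11 to 12.87, than in sham, at 13.75 to 14.36. Klrd1 was at 5.11 to 6.98 in OA and 7.63 to 16.09 in sham, so both did not overlap, at low levels. Mean levels in OA and sham were 73.8 and 97.5 for Cd8a, and 215 and 193 for Il7r. Endothelial genes (6 of 8 found) summed to 28599 to 36160 in OA and 32836 to 49290 in sham, and chondrocyte and osteoblast genes (8 of 8 found) to 2679 to 5402 in OA and 1299 to 3346 in sham. Of 22 immediate early genes 16 had a lower mean log2 level in OA at 12 weeks, with a median log2 fold change of -0.15. Within groups, over the 18 libraries, the log2 level of Jak3 had r = 0.750 with the mean of the immediate early genes, -0.75 with that of the skeletal muscle genes and -0.74 with that of the T and NK cell genes. The part of these lists in the Jak3 result was not tested. Over the 18 libraries, after the group means were taken out, the genes whose log2 levels were most like Jak3 among 14420 were Gramd1a (Pearson's r = 0.912), Srsf2 (r = 0.893) and Ddx39b (r = 0.889), which were looked up after the Jak3 values were seen.

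The partner of JAK3, the common gamma chain Il2rg, was at 12 weeks at 921 to 1056 normalized reads in OA and, in sham, at 1016 to 1124. Its log2 fold change of -0.08 (95% interval -0.23 to 0.07) is given here after its values were seen. Il21r, which pairs with Il2rg, had a log2 fold change of 0.44 at 12 weeks (unadjusted p = 0.0351 and adjusted p = 0.378 in limma), with 211 to 319 normalized reads in OA and 162 to 265 in sham. At 4 weeks, where Jak3 overlapped, the log2 fold change of Il21r was nearly the same, 0.45 (unadjusted p = 0.0410 and adjusted p = 0.615 in limma). Further chains looked up after their values were seen went both ways at 4 weeks. Il2rb had a log2 fold change of -0.999 (unadjusted p = 0.0338 and adjusted p = 0.607 in limma). Il15ra had one of -0.432 (unadjusted p = 0.0498 and adjusted p = 0.629 in limma), Il4r one of 0.192 and Il7r one of 0.150. At 12 weeks these were -0.190 for Il2rb, -0.0099 for Il15ra, 0.053 for Il4r and 0.160 for Il7r. Il2rb held at most 62.7 normalized reads at 4 weeks.

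The other kinases, Jak1, Jak2 and Tyk2, had higher means in OA at 4 weeks, and most of that was gone without 1 sham library. JAK1 and JAK2 serve most of the cytokine receptors of macrophages, and TYK2 pairs with them for interferon, interleukin-10 and interleukin-12. At 4 weeks Jak2 in OA was at 2285, 2632, 2411, 2184 and 2255 normalized reads and in sham at 2607, 2544, 1265, 2416 and 2266. The value of 1265 belongs to sham replicate 3, the library with the fewest reads, and the other 4 sham libraries, at 2266 to 2607, lay within the range of OA. The log2 fold change of Jak2 was 0.13 (95% interval -0.24 to 0.50) and without that library -0.06, the opposite sign. Tyk2 in OA was at 1630, 1700, 1664, 1592 and 1570 normalized reads and in sham at 1646, 1565, 961, 1606 and 1605. Its log2 fold change of 0.17 (95% interval -0.12 to 0.46) became 0.02 without sham replicate 3. Jak1 ranged from 6423 to 7224 in OA and from 5262 to 6949 in sham, with the lowest value again in sham replicate 3, and its log2 fold change of 0.10 (95% interval -0.09 to 0.30) became 0.03 without it.

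At 12 weeks the 3 kinases overlapped between the groups. Jak1 was at 7245 to 7634 normalized reads in OA and 7294 to 7979 in sham, and Jak2 at 2540 to 2706 in OA and 2616 to 2871 in sham. The log2 fold changes were -0.03 (95% interval -0.17 to 0.12) for Jak1 and -0.06 (95% interval -0.18 to 0.07) for Jak2, so the intervals leave out a change of 0.5 in either direction. Tyk2 was at 1801, 2102, 1575 and 1657 normalized reads in OA and 2153, 2093, 1606 and 2073 in sham. Here sham replicate 3 of 12 weeks was the low library, the log2 fold change was -0.15 (95% interval -0.40 to 0.10), and without that library it was -0.25 with an unadjusted p-value of 0.0243 and an adjusted p-value of 0.332 in limma.

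**Figure D2:**
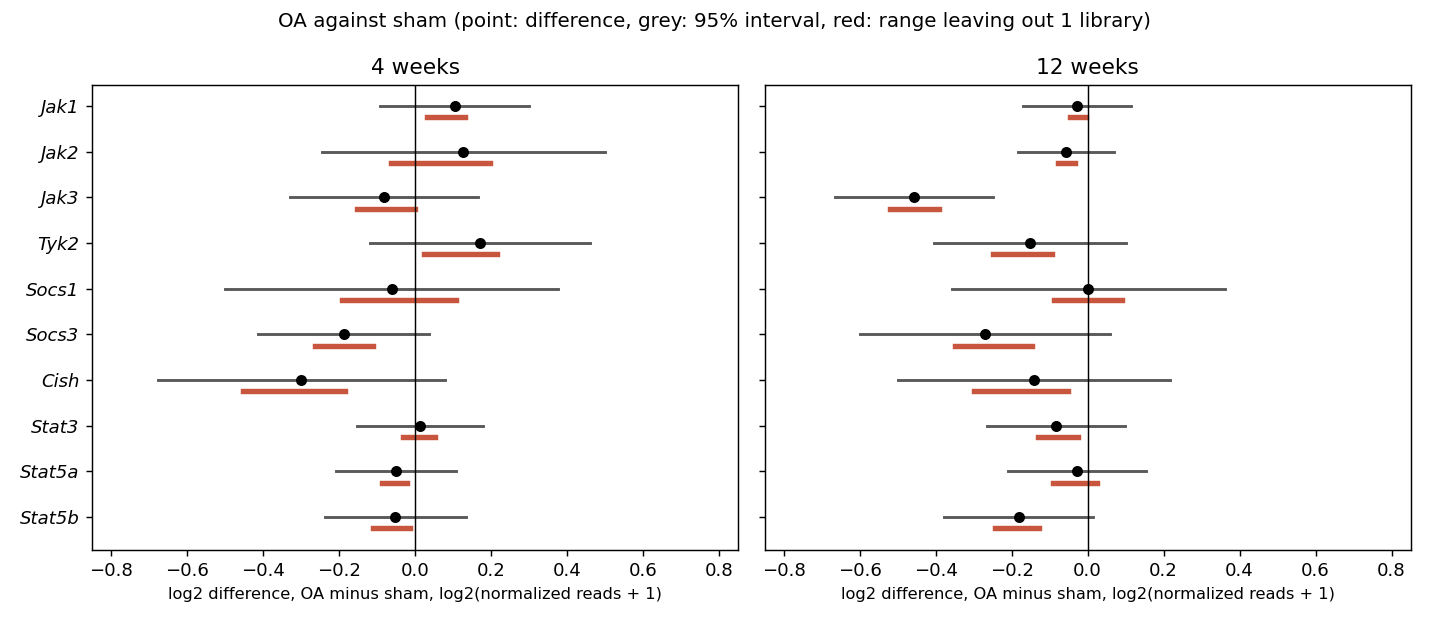
Log2 difference of OA minus sham (x axis, on log2 of normalized reads plus 1) for each gene at both weeks, with the point for all libraries, the 95% interval in grey and the range over leaving out 1 library in turn in red. Of the 20 intervals, that of Jak3 at 12 weeks, -0.66 to -0.25, is the one that does not reach 0. The intervals are not adjusted for the number of genes, and the adjusted p-value of Jak3 at 12 weeks was 0.264 in limma.

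The SOCS feedback inhibitors had mean levels at or below sham in OA, with none past the test. SOCS3 binds the shared receptor chain gp130 and limits STAT3 signalling. At 4 weeks Socs3 in OA was at 3394, 4072, 2673, 3147 and 3446 normalized reads (3346 ± 508, SD, n = 5) and in sham at 4143, 3669, 3779, 3807 and 3516 (3783 ± 232, SD, n = 5). In 4 of 5 OA libraries the level was below every sham library, and OA replicate 2 was above all but 1 of them. The log2 fold change was -0.19 (SE 0.10, 95% interval -0.41 to 0.04), with an unadjusted p-value of 0.0947 and an adjusted p-value of 0.659 in limma. At 12 weeks Socs3 in OA was at 5858, 5157, 5749 and 3963 normalized reads and in sham at 5542, 5248, 7650 and 6534. The spread within the groups was wide, and the log2 fold change was -0.27 (SE 0.15, 95% interval -0.60 to 0.06; unadjusted p = 0.0972 and adjusted p = 0.468 in limma). It was -0.15 without OA replicate 4 and -0.17 without sham replicate 3, and the value of 4 weeks was -0.11 without OA replicate 3. The genes most like Socs3 over the 18 libraries were Rasd1 (r = 0.893), Nfil3 (r = 0.888) and Gadd45g (r = 0.872).

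Cish, whose product CIS competes with STAT5 for its docking sites, was low and tight in OA and scattered in sham. At 4 weeks the OA libraries held 101.9, 80.0, 92.7, 94.7 and 101.9 normalized reads (94.3 ± 8.98, SD, n = 5) and the sham libraries 126, 131, 160, 104 and 75.5 (119 ± 31.6, SD, n = 5). All 5 OA libraries were below the sham median, but sham replicate 5 was below all of them. The log2 fold change of -0.30 (SE 0.17, 95% interval -0.68 to 0.08) had an unadjusted p-value of 0.110 and an adjusted p-value of 0.672 in limma. It was -0.18 without sham replicate 3 and -0.45 without sham replicate 5, the latter with an unadjusted p-value of 0.00643. At 12 weeks Cish in OA was at 98.6, 92.9, 107 and 107 normalized reads and in sham at 80.1, 125, 135 and 116, a log2 fold change of -0.14 (95% interval -0.50 to 0.22). Recovered reads behind these values were 69 to 147 per library. The genes most like Cish were Pqbp1 (r = 0.868) and Myl6 (r = 0.864).

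Socs1, an inhibitor of the kinases themselves and of interferon signalling, gave no difference that these libraries could resolve. At 4 weeks it was at 96.4, 94.3, 98.9, 85.6 and 75.9 normalized reads in OA and 116, 64.9, 151, 78.5 and 81.0 in sham, so that the sham libraries enclosed all of OA. At 12 weeks it was at 172, 120, 167 and 119 in OA and 122, 131, 172 and 149 in sham. The log2 fold changes were -0.06 (95% interval -0.50 to 0.38) and 0.00 (95% interval -0.36 to 0.36), on 65 to 197 recovered reads per library. The genes most like Socs1 were Cdh15 (r = 0.862), AABR07065124.1 (r = 0.859) and Hoxb2 (r = 0.844), and these values were 0.753, 0.754 and 0.779 without sham replicate 3 of 4 weeks, the highest Socs1 library of that week.

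Immediate early genes, which rise during tissue digestion as well as in signalling, moved with several members between libraries. After centring on group means, the mean log2 level of the list had r = 0.784 with Stat5b, 0.750 with Jak3, 0.723 with Socs3 and 0.711 with Stat3 over the 18 libraries, and from -0.21 to 0.50 with the other members. Of 23 such genes 22 were found, and they summed to 153360 to 199740 normalized reads in OA and 155870 to 210110 in sham at 4 weeks, and to 209910 to 268930 in OA and 241790 to 304330 in sham at 12 weeks. Their part in the values of these members was not tested, and the r values were not computed without sham replicate 3 of 4 weeks. On a scale common to both weeks (TMM-scaled log2 CPM) Socs3 was at 8.14 ± 0.22 in OA and 8.28 ± 0.11 in sham at 4 weeks (SD, n = 5), and at 8.58 ± 0.26 in OA and 8.85 ± 0.23 in sham at 12 weeks (SD, n = 4). Socs1 was at 2.96 ± 0.16 and 2.98 ± 0.44 at 4 weeks and 3.43 ± 0.29 and 3.43 ± 0.20 at 12 weeks, in OA and sham, while Cish was at 3.03 ± 0.13 and 3.28 ± 0.37 and then at 2.95 ± 0.10 and 3.09 ± 0.31. The mean log2 CPM of the immediate early genes was 8.64 ± 0.18 and 8.58 ± 0.30 at 4 weeks and 8.84 ± 0.19 and 8.96 ± 0.16 at 12 weeks. Both arms shifted the same way between the weeks for Socs3 and Socs1, but time after surgery, the rats' age, pool size and handling differ together there and cannot be told apart.

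**Figure D3:**
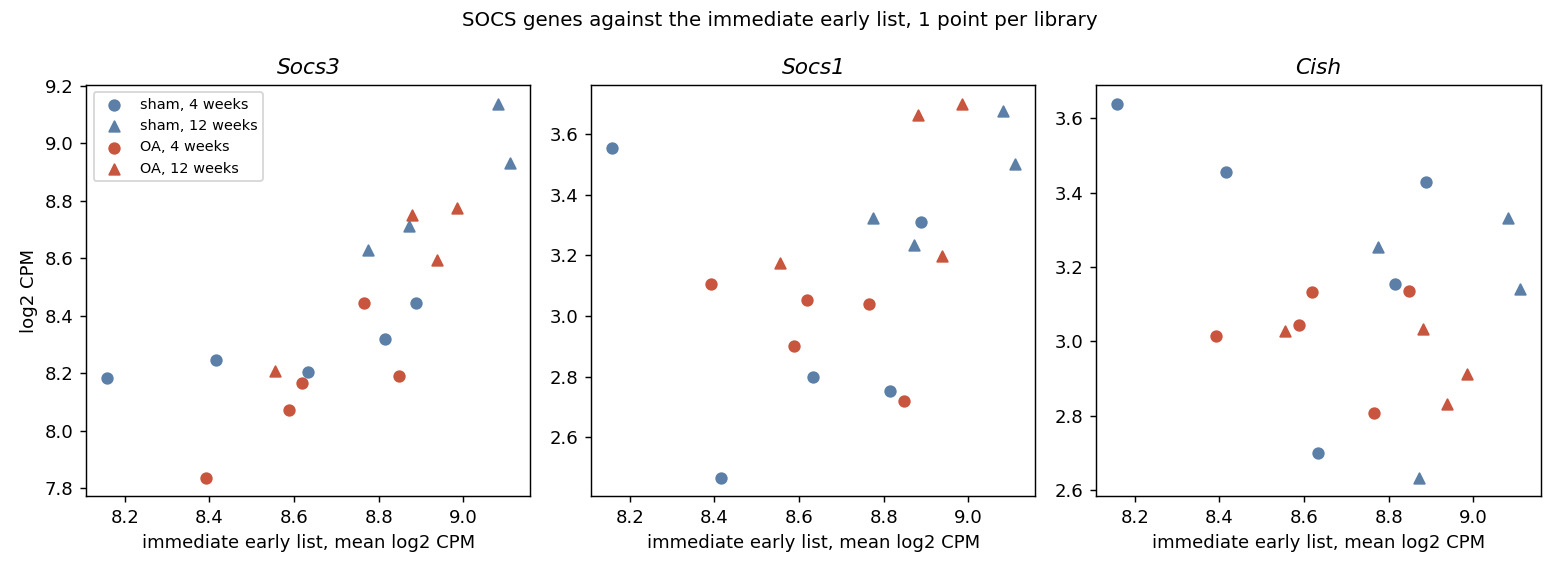
TMM-scaled log2 CPM of Socs3, Socs1 and Cish (y axes) against the mean log2 CPM of 22 immediate early genes (x axis), 1 point per library, with sham in blue, OA in red, circles for 4 weeks and triangles for 12 weeks. Socs3 is generally higher where the immediate early genes are, and 7 of the 8 libraries of 12 weeks lie above every library of 4 weeks for it, OA replicate 4 at 8.21 being the exception.

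The STAT factors overlapped between OA and sham at both weeks. STAT3 carries the signals of interleukin-6 and interleukin-10 type cytokines, and STAT5A and STAT5B those of GM-CSF and interleukin-3. Stat3 at 4 weeks was at 4488, 4618, 4675, 4583 and 4905 normalized reads in OA (4654 ± 156, SD, n = 5) and 5127, 4575, 4066, 4778 and 4566 in sham (4623 ± 385, SD, n = 5). The sham libraries enclosed the OA libraries, and the log2 fold change of 0.01 (95% interval -0.15 to 0.18) changed sign, to -0.01, with TMM scaling, edgeR or DESeq2. At 12 weeks Stat3 was at 5190 to 5898 in OA and 5239 to 6531 in sham, a log2 fold change of -0.08 (95% interval -0.26 to 0.10).

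Stat5a and Stat5b are close copies, and reads that match both may have been split or lost in the counting. Stat5a was at 866 to 986 normalized reads in OA and 868 to 1042 in sham at 4 weeks, and at 1127 to 1192 in OA and 1035 to 1316 in sham at 12 weeks. The log2 fold changes were -0.05 (95% interval -0.21 to 0.11) and -0.03 (95% interval -0.21 to 0.15). Stat5b at 12 weeks was at 2345, 2290, 2426 and 2046 in OA and 2454, 2261, 2873 and 2763 in sham. All 4 OA libraries were below the sham median but 1 was below every sham library, and the log2 fold change was -0.18 (SE 0.09, 95% interval -0.38 to 0.02; unadjusted p = 0.0668 and adjusted p = 0.427 in limma). At 4 weeks it was -0.05 (95% interval -0.24 to 0.13). For Stat6, the interleukin-4 factor, the log2 fold changes were 0.06 at 4 weeks and 0.01 at 12 weeks, with adjusted p-values of 0.808 and 0.971 in limma.

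Among the members themselves, levels that moved together did so partly through 1 library. After centring on group means, Jak2 and Tyk2 had r = 0.847 over the 18 libraries and 0.414 without sham replicate 3 of 4 weeks. For Jak1 and Jak2 the values were 0.777 and -0.23. Stat3 and Stat5b had r = 0.789 with that library and 0.756 without it, and Jak3 and Socs3 0.612 and 0.711. Libraries share their depth and scaling across genes, so these are descriptions.

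The wider pathway was read from lists of 121 further genes, of which 96 were tested at 4 weeks and 95 at 12 weeks. None was called. At 4 weeks 13 (13.5%) were under an unadjusted 0.05 in limma, with OA above sham for 7 and below it for 6, and at 12 weeks 13 (13.7%), above for 4 and below for 9, beside backgrounds of 7.92% and 12.4%. The smallest adjusted p-value was 0.570 at 4 weeks and 0.278 at 12 weeks in limma. Leaving out OA replicate 4 of 12 weeks left 5 of these genes at 12 weeks, and leaving out OA replicate 2 or sham replicate 2 of 4 weeks left 8 at 4 weeks. The share of all genes under 0.05 in those fits is not given here. In the fit of the difference between weeks 0 of 93 genes were under 0.05.

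Of 32 cytokine ligands 13 were tested at each week. At 4 weeks Ctf1, encoding cardiotrophin-1, had a log2 fold change of -0.45 (unadjusted p = 0.0242 in limma) and Il7 one of 0.49 (unadjusted p = 0.0478 in limma), both on at most 65.0 normalized reads per library. At 12 weeks Lif, a gp130 ligand, was at 94.4 to 174 normalized reads in OA and 61.9 to 128 in sham (log2 fold change 0.63, unadjusted p = 0.0289 and adjusted p = 0.368 in limma). Cntf was at 49.3 to 68.4 in OA and 70.1 to 78.2 in sham, without overlap (log2 fold change -0.36). Il12a, a subunit of interleukin-12, had a log2 fold change of -0.74 on 5.11 to 18.05 normalized reads, few for any statement of size. The median over the ligands was -0.10 at 4 weeks and -0.26 at 12 weeks.

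Among 38 receptor chains 34 were tested at 4 weeks and 33 at 12 weeks. Il4r, the chain that takes interleukin-4 to JAK1 and STAT6, was at 3378 to 3711 normalized reads in OA and 2918 to 3284 in sham at 4 weeks, without overlap (log2 fold change 0.19, adjusted p = 0.570 in limma). At 12 weeks Il4r overlapped, with a log2 fold change of 0.05. Il10rb, the signalling chain of the interleukin-10 receptor that carries TYK2, was 0.20 higher on the log2 scale at 4 weeks and 0.21 at 12 weeks. At 12 weeks it was at 1234 to 1388 in OA and 959 to 1218 in sham, without overlap (adjusted p = 0.368 in limma). Lifr, the receptor of LIF, had log2 fold changes of -0.36 and -0.39, with unadjusted p-values of 0.0138 and 0.0301 in limma. Osmr, for oncostatin M, had a log2 fold change of -0.25 at 4 weeks (unadjusted p = 0.0166 in limma). At 12 weeks that of Osmr was -0.28 (95% interval -0.80 to 0.24, unadjusted p = 0.258 in limma), and it was -0.097 without sham replicate 3 and -0.11 without OA replicate 4. Csf2rb, the shared chain for GM-CSF that binds JAK2, was at 3075 to 4216 in OA and 4537 to 6034 in sham at 12 weeks, groups that did not overlap. For Csf2rb the log2 fold change was -0.43 (SE 0.12, adjusted p = 0.278 in limma) at 12 weeks and -0.22 at 4 weeks. Of the 34 receptor chains tested at 4 weeks 10 were under an unadjusted 0.05, with OA above sham for 5 of them, beside 7.92% of all genes. Of the 33 tested at 12 weeks 5 were, above for 2, beside 12.4% of all genes. The medians over the receptor chains were -0.01 and -0.04.

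**Figure D4:**
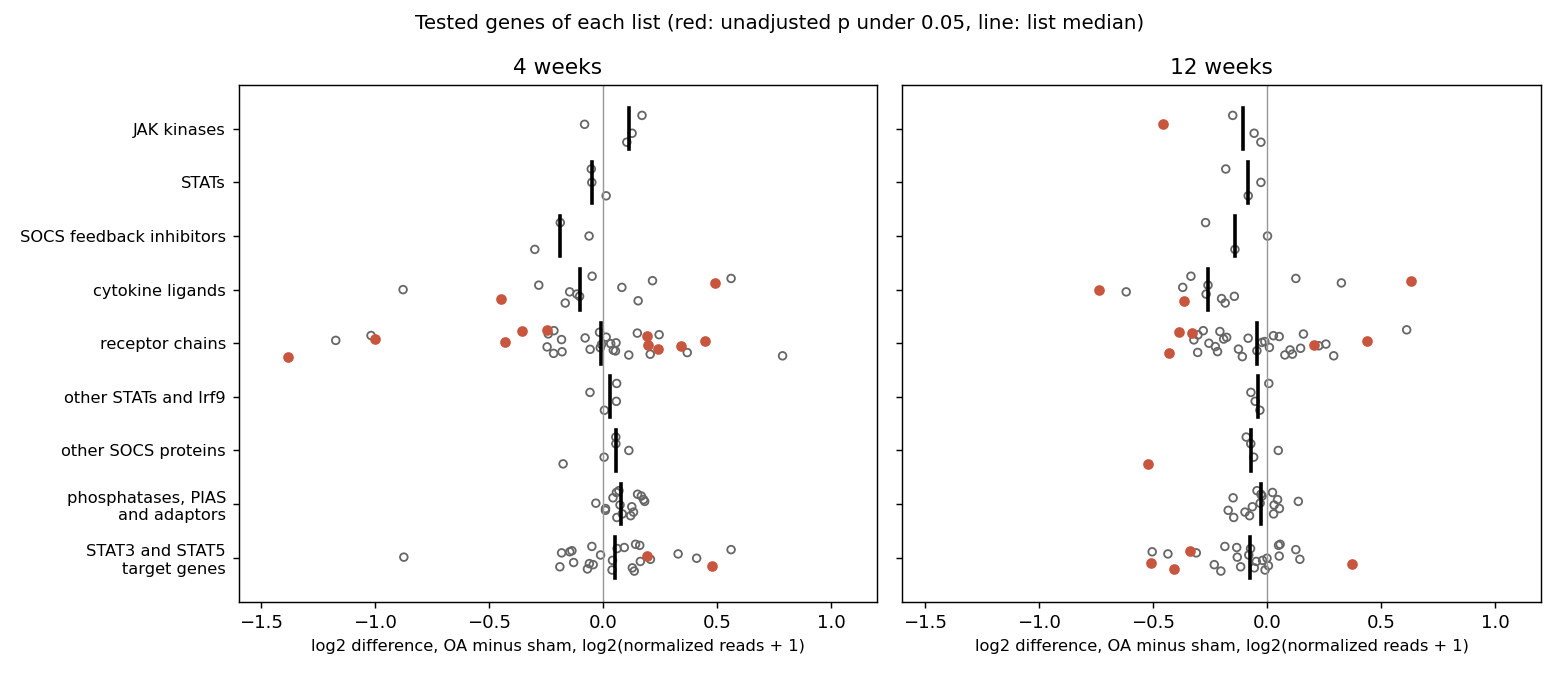
Log2 difference of OA minus sham (x axis, on log2 of normalized reads plus 1) of every tested gene of each list at 4 and 12 weeks, red for those whose unadjusted p-value is under 0.05, open for the others, and the list median as a black line. Jak3 at 12 weeks and Socs2 at 12 weeks stand to the left of their lists, at -0.46 and -0.52.

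Of the remaining SOCS genes Socs2 was the one under the unadjusted threshold. SOCS2 restrains growth hormone receptor signalling through STAT5. At 12 weeks Socs2 was at 361 to 533 normalized reads in OA and 579 to 856 in sham, without overlap, a log2 fold change of -0.52 (SE 0.15, unadjusted p = 0.0069 and adjusted p = 0.285 in limma), and at 4 weeks the log2 fold change was -0.18 (adjusted p = 0.666 in limma). Socs4, Socs5, Socs6 and Socs7 were above an unadjusted 0.05 at both weeks. None of Stat2, Stat6 and Irf9, and none of the 16 phosphatases, PIAS proteins and adaptors, was under 0.05 at either week. Of the 16 phosphatases, PIAS proteins and adaptors 15 had a higher mean log2 level in OA at 4 weeks, with a median of 0.08, and 6 at 12 weeks, with a median of -0.03. Of all genes tested 42.9% were lower in OA at 4 weeks, with a median of 0.03, and 52.5% at 12 weeks, with a median of -0.01. The count at 4 weeks without the sham library with the fewest reads is not given here. It is therefore not read as a joint rise in OA.

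Of 28 target genes of STAT3 and STAT5 26 were found and tested, and none was called. At 4 weeks 15 had a higher and 11 a lower mean log2 level in OA, and at 12 weeks 7 higher and 19 lower, where 52.5% of all genes were lower. The difference between the weeks was below 0 for 23 of the 26, compared with 53.1% of all genes. At 4 weeks Cebpb, a macrophage transcription factor, had a log2 fold change of 0.48 (unadjusted p = 0.0352 and adjusted p = 0.611 in limma), and Il4r stands in this list too. At 12 weeks Dusp2, a phosphatase of MAP kinases, was at 353 to 447 normalized reads in OA and 262 to 343 in sham (log2 fold change 0.37, adjusted p = 0.280 in limma). Bcl3 had a log2 fold change of -0.41, Nfil3 one of -0.34 and Fgl2 one of -0.51 at 12 weeks, with unadjusted p-values of 0.0239, 0.0265 and 0.0388 in limma. Nfil3 was at 880 to 1194 in OA and 1210 to 1718 in sham, without overlap, and was also among the genes most like Socs3. The median over the targets was 0.05 at 4 weeks and -0.08 at 12 weeks.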

How the data were processed

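RNA-seq libraries from CD11b/c+ synovial cells (total RNA, ribosomal RNA removed) were compared. The authors checked reads with fastp 0.20.0, aligned them with STAR 2.7.6a to Rnor_6.0, dropped duplicate reads (Sambamba), ran featureCounts 2.0.0 for counts per gene and divided by DESeq2 1.24.0 size factors within each week. The strand setting is not given in the sources used here. The deposited signal is normalized reads. In each library 100% of values fell on multiples of what 1 read is worth, so reads were recovered. Columns with the comparisons of the authors (log2 fold change, standard error, p-value and a Wald score) are deposited beside them and were not used.

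OA and sham, grouped by the labels, were compared within each week in limma 3.58.1 (R 4.3.3) on log2 of the normalized reads plus 1, for genes with a mean of at least 10, adjusted over all of them. Single members had exact permutation tests. The difference between weeks was fitted in limma on TMM-scaled log2 CPM with a prior count of 2. edgeR 4.0.16, DESeq2 1.42.0, TMM scaling, pseudocounts of 0.5 and 5, a minimum of 50 or none, a replicate block and leaving out each library were the alternatives, and DESeq2 without a fold-change minimum was added after the data were seen. Fits were tested on simulated data. The members and lists were chosen with earlier results of these data known. Named genes are the members, Stat6, up to 4 genes per list and week with the smallest unadjusted p-values under 0.05, and the 3 genes most like each SOCS member, apart from genes not reported here. Nothing in the labels says more than that each library is a separate pool, so p-values measure the spread between pools. No gene lengths were used, and levels are not compared between genes.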

Additional observations from a re-analysis of the deposited data

Results flagged for a closer look

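A library counted as standing apart when its gap to the nearest library of its group, as a share of the group's whole range, exceeded Dixon's 95% critical value. For the members and the other named genes 112 groups were looked at and 9 stood apart, where chance flags about 1 in 20 groups. Of the 9, 3 were sham replicate 3 of 4 weeks, the lowest of its group in Jak1 (share 0.751), Jak2 (0.746) and Tyk2 (0.881). Tyk2 was also lowest in sham replicate 3 of 12 weeks (0.854), at 1606 normalized reads beside 2073 to 2153.

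OA replicate 4 of 12 weeks was lowest in Csf2rb (0.940), at 3075 beside 4147 to 4216, and in Nfil3 (0.841), and highest in Il10rb (0.891). Sham replicate 1 of 4 weeks was highest in Il10rb (0.920), and sham replicate 3 of 12 weeks in Socs2 (0.843), at 856 normalized reads beside 579 to 623.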

How the results depend on the processing

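No member was called at either week or for the difference under any alternative set in advance. DESeq2 with no fold-change minimum called 1 member at 12 weeks, Jak3. Members at an unadjusted p-value under 0.05 numbered 0 to 1 at 4 weeks over the fits that leave out 1 library (Socs3 without OA replicate 2, Cish without sham replicate 5) and 1 to 3 at 12 weeks (Jak3 in each fit, Cish without sham replicate 1, Socs3 and Stat5b without sham replicate 2, Tyk2 without sham replicate 3). The share of all genes under 0.05 in these leave-out fits is not given here, so the counts are not read as a result about the members. Stat3 at 4 weeks turned to -0.012 with TMM scaling and -0.014 with edgeR and DESeq2.

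Leaving out 1 library turned the sign of small log2 fold changes. At 4 weeks these ranged from -0.0639 to 0.197 for Jak2, -0.192 to 0.108 for Socs1, -0.0320 to 0.0516 for Stat3, -0.0835 to 0.243 for Cntf and -0.175 to 0.126 for Dusp2. At 12 weeks they ranged from -0.0874 to 0.0918 for Socs1, -0.0898 to 0.0254 for Stat5a, -0.0400 to 0.0543 for Stat6, -0.0479 to 0.130 for Il4r and -0.0274 to 0.0492 for Cebpb. The difference turned to 0.0369 for Jak2 and -0.0760 for Socs1 without sham replicate 3 of 4 weeks. For Socs3 it turned to 0.0249 without OA replicate 2 of 4 weeks, 0.0721 without OA replicate 4 of 12 weeks and 0.0618 without sham replicate 3 of 12 weeks, and for Stat3 to 0.00342 without the last. The cause was not tested.

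Same-numbered libraries come from different rats, and their deviations correlated at -0.04 to 0.05 at 4 weeks and -0.03 to 0.32 at 12 weeks. The labels give no pairing by number, and the main fits used none. So few correlations cannot exclude shared handling of same-numbered libraries. With a replicate block 0 members were called in each comparison and 1 was at an unadjusted p-value under 0.05 at 12 weeks, Jak3 (adjusted p = 0.111 in limma). The share of all genes in the block fits is not given here. The 65 recovered reads of the lowest Socs1 library limit what can be resolved for it.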
